A study of Caenorhabditis elegans with 24 samples.

Results

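Germline nuclei enriched from wild-type *Caenorhabditis elegans* young adults were set against whole worms of the same strain. The libraries were taken by their labels alone, 3 of nuclei and 3 of whole worms, which make 6 of the 24 libraries of the series, and no measured value chose them. The study asks how insulin/IGF-1 signaling regulates protein quality control in germ cells, and nuclei were isolated so that RNA of the germline could be read apart from RNA of the body. The other libraries are nuclei and worms of the insulin receptor mutant *daf-2(e1370)*, 3 each, and 12 libraries of *daf-2(e1370)* animals with or without HSF-1 depletion.

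Both groups were strain JTL621 and shared every allele. The strain is wild type for *daf-2* and carries *hsf-1* fused to a degron and GFP (*ljt3*), the *unc-119(ed3)* allele, and *ieSi38*, an insertion in which the germline promoter of *sun-1* drives TIR1 together with a *Cbr-unc-119(+)* marker. HSF-1, the heat shock transcription factor, is thus a tagged protein in both groups, and the labels name no auxin for them. Worms were raised at 20 °C on OP50 bacteria and collected as young adults. Nuclei were released by homogenization of a large pool of worms after a light fixation in cold dimethylformamide, and whole worm lysate was also kept. The nuclei were enriched by that preparation and not sorted by a marker.

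The adult hermaphrodite gonad is a shared cytoplasm lined by germ nuclei, which divide at the distal end, pass through meiotic prophase and end in oocytes, while sperm are made before adulthood. A nucleus holds transcripts that are being made or processed, and rRNA is made and cut in its nucleolus. Most mRNA of a worm lies in the cytoplasm, where ribosomes, mitochondria and stored maternal messages are. Yolk proteins, muscle proteins and collagens of the cuticle are made by the soma, so their transcripts serve as a check of what a nuclear preparation still holds.

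The authors deposited log2 CPM per gene, that is read counts scaled by an adjusted library size. Genes were kept where 3 or more of the 12 nuclei and worm libraries had at least 1 CPM, which left 13613 of 14206. Sequencing depth was estimated from what a single read was worth among the low values, which gave 16.99 to 19.3 M reads in genes for nuclei and 21.9 to 23.3 M for worms. Outside rRNA these were 4.99 to 6.29 M in nuclei and 15.01 to 18.8 M in worms, so that 3 reads were worth 0.287 to 0.418 CPM in nuclei and 0.0591 to 0.0882 CPM in worms. Genes without a read share the lowest deposited value and are given here as 0 CPM. Across genes, Pearson's r of log2 CPM was 0.820 to 0.836 between nuclei libraries, 0.926 to 0.930 between worm libraries, and 0.618 to 0.778 between nuclei and worms. The worm library of replicate 1 lay nearest to the nuclei (0.731 to 0.778) and that of replicate 2 farthest from them (0.618 to 0.661). Nothing in the labels says that libraries came from separate cultures, so p-values measure only the spread between these samples. In bulk RNA, fewer cells of a type and less RNA per cell cannot be told apart. Nuclei and whole worms differed in tissue and in cell compartment together, so these cannot be told apart either.

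Of the 13613 genes, 2170 (15.9%) were higher and 2638 (19.4%) were lower in nuclei than in worms, at an adjusted p under 0.05 by limma with Benjamini-Hochberg adjustment. All fold changes below are nuclei over worms on the log2 scale, given ± SE, and the median over all genes was -0.34. A log2 fold change of at least 1 in size was reached by 1994 of the higher and 2495 of the lower genes. When values were scaled to the sum outside rRNA and the mitochondrial genome, every fold change moved down by 0.69, the median of all genes became -1.03, and 1273 genes were higher and 4752 lower. The split of the calls therefore depends on the scaling. Medians of gene groups are given as fitted unless stated otherwise, and are to be read against the median of all genes, -0.34. Counts of a list are to be read beside the shares of 15.9% higher and 19.4% lower. The worm library of replicate 2 had the lowest worm value in 1411 of the 2170 higher genes and the highest in 1769 of the 2638 lower genes. Without it, 1570 genes were higher and 1580 lower. It also had the smallest share of rRNA of the wild-type worms, 15.8%, against 29.9% and 35.03% in the others. In *daf-2(e1370)* worms this share was 9.31 to 13.3%. Pearson's r of the replicate 2 library with the *daf-2(e1370)* worm libraries was 0.921 to 0.936. For the other wild-type worm libraries it was 0.819 to 0.868. The part of these differences in the calls was not tested.

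Ribosomal RNA took up most of the nuclei libraries. Its loci on chromosome I (*rrn-1.1*, *rrn-1.2*, *rrn-2.1* and *rrn-3.1*) held 64, 72.8 and 61.9% in nuclei, against 29.9, 15.8 and 35.03% in worms, although the libraries were selected for poly(A). The groups did not overlap, and an exact two-sided permutation test gave p = 0.1, the smallest that 3 against 3 allow. The smallest product of the repeat, from *rrn-2.1*, stood at 3681, 5664 and 6182 CPM in nuclei, against 298, 116 and 276 CPM in worms (log2 fold change 4.58 ± 0.44, adjusted p = 2.59e-05). The small subunit RNA *rrn-1.1* had a log2 fold change of 3.05 ± 1.13 (adjusted p = 0.0487), and *rrn-1.2* and *rrn-3.1* had 3.05 ± 1.34 and 3.40 ± 3.00, with adjusted p = 0.0919 and 0.399. After quantile scaling the change of *rrn-1.1* was 0, since that scaling gives the most abundant genes of every library the same value. Reads of the repeat copies were shared among them as fractions, so the split between the loci is uncertain.

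**Figure D1:**
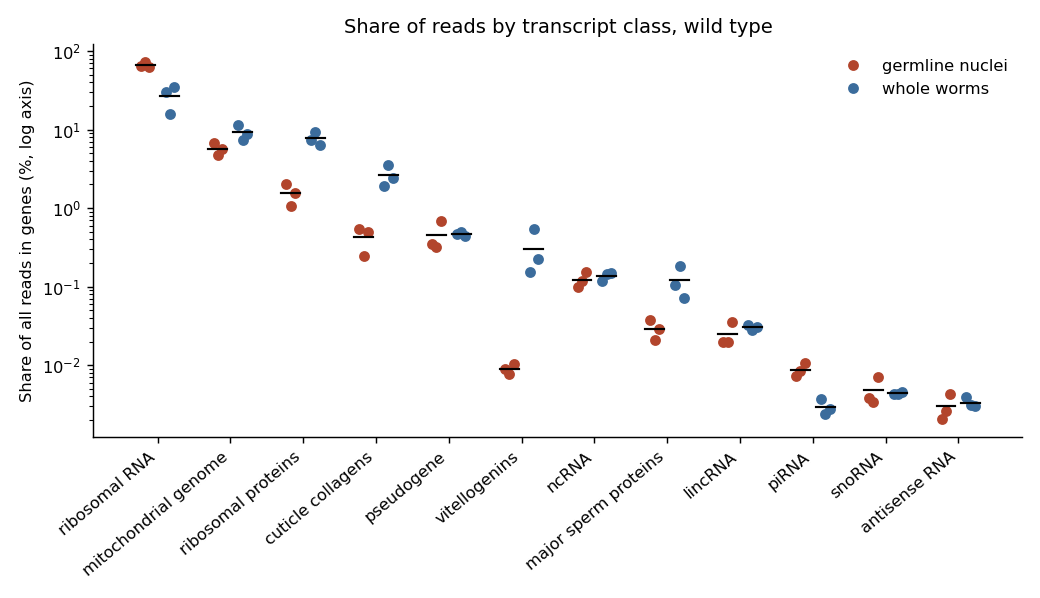
Share of all reads in genes held by 12 transcript classes (percent, log axis) in the 3 germline nuclei libraries (red, left) and the 3 whole worm libraries (blue, right) of the wild type; black bars are means. rRNA held 61.9 to 72.8% in nuclei and 15.8 to 35.03% in worms, and vitellogenins, collagens and ribosomal proteins lay below every worm library.

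Yolk protein transcripts fell furthest among the somatic lists. Vitellogenins are made in the intestine and taken up by oocytes as protein, and all 6 genes were lower in nuclei, with a median of -2.79. *vit-2* had 93.5, 96.4 and 65.8 CPM in nuclei, against 489, 1111 and 635 CPM in worms (log2 fold change -3.06 ± 0.36, adjusted p = 4.65e-05). *vit-6* had 30.1, 41.4 and 44.8 CPM in nuclei, against 204, 653 and 447 CPM in worms, and *vit-1* 4.36, 5.3 and 7.41 CPM in nuclei, against 61, 142 and 46.2 CPM in worms, with log2 fold changes of -3.35 ± 0.43 and -3.73 ± 0.44 and adjusted p = 8.79e-05 and 4.71e-05. Every nuclei library lay under every worm library for each of these genes. *vit-5*, *vit-4* and *vit-3* followed with -2.37, -2.52 and -1.78, of which *vit-3* had the smallest change (26, 25.2 and 18.2 CPM in nuclei, against 66, 119.6 and 61.7 CPM in worms, adjusted p = 0.00121). The 6 genes summed to 170.3 to 209 CPM in nuclei and 979 to 2369.7 CPM in worms.

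Body wall muscle genes were mostly lower. Of 24 body wall muscle genes, 16 were lower and 1 higher, with a median of -1.82. The defining myosin heavy chain *unc-54* had 51.5, 56.8 and 56.2 CPM in nuclei, against 194, 367 and 480.3 CPM in worms (log2 fold change -2.57 ± 0.30, adjusted p = 5.17e-05). The minor heavy chain *myo-3* had 6.59, 16.4 and 5.42 CPM in nuclei, against 30.9, 55.6 and 78 CPM in worms (adjusted p = 0.000423). Both stand outside the rule for named genes and were chosen after their values were seen. The regulatory light chains *mlc-1* and *mlc-2* had log2 fold changes of -3.46 ± 0.32 and -2.66 ± 0.27 (adjusted p = 2.59e-05 and 2.59e-05), troponin T *mup-2* had -3.06 ± 0.34 and troponin I *unc-27* -2.30 ± 0.23 (adjusted p = 3.66e-05 and 2.59e-05). The exception was *ttn-1*, a giant titin-like gene, with 3211, 4919 and 4168 CPM in nuclei, against 1372, 394 and 1219.5 CPM in worms (log2 fold change 2.21 ± 0.42, adjusted p = 0.00112). After quantile scaling its call was lost. With *ttn-1*, the summed level of the list was 4961 to 6591 CPM in nuclei and 4657 to 6627 CPM in worms, and 1671 to 1818 CPM against 3285 to 5407 CPM without *ttn-1*. The muscle transcription factor *hlh-1* had 0, 0 and 0.211 CPM in nuclei, against 0.537, 1.15 and 1.25 CPM in worms (adjusted p = 0.0449, also chosen after its values were seen).

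Collagens of the cuticle, which the hypodermis secretes, were more often lower than higher. Of 128 genes, 41 were lower and 5 higher (median -0.49). *col-181* had 34.5, 27 and 18.5 CPM in nuclei, against 269.7, 722 and 426 CPM in worms (log2 fold change -4.08 ± 0.31, adjusted p = 1.73e-05). *col-80*, *col-119* and *col-129* had log2 fold changes of -4.92 ± 0.49, -3.62 ± 0.35 and -3.52 ± 0.35 (adjusted p = 2.59e-05, 2.59e-05 and 2.59e-05). The collagens that were higher in nuclei stood at low levels in worms, such as *col-115* with 15.8, 24.9 and 20.7 CPM in nuclei, against 6.06, 0.658 and 3.68 CPM in worms, *col-76* with a log2 fold change of 2.17 ± 0.46 and *col-53* with 2.03 ± 0.53 (adjusted p = 0.0113, 0.00255 and 0.0091). Of all reads outside rRNA and the mitochondrial genome, collagens held 1.91, 1.16 and 1.56% in nuclei, against 3.26, 4.58 and 4.32% in worms.

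The remaining somatic lists had medians from -1.21 to 0.48. Of 24 intestinal genes, 8 were lower and 2 higher (median -0.95). The peptide transporter *pept-1*, which the study ties to insulin signaling, had 3.85, 2.16 and 6.76 CPM in nuclei, against 15.4, 23.3 and 24.9 CPM in worms (log2 fold change -2.44 ± 0.45, adjusted p = 0.001). The intermediate filament *ifb-2* had 15.8, 12.9 and 12.4 CPM in nuclei, against 53.8, 78.5 and 85.5 CPM in worms (adjusted p = 0.000261). The gut GATA factor *elt-2*, chosen after its values were seen, had 0.698, 0.207 and 1.88 CPM in nuclei and 3.18, 2.88 and 6.05 CPM in worms (adjusted p = 0.0356). The 2 intestinal genes that were higher were *cpr-5*, a cathepsin B-like protease (1.25 ± 0.37, groups overlapping), and *fat-6*, a stearoyl-CoA desaturase (0.78 ± 0.25), with adjusted p = 0.0169 and 0.0242. Of 42 neuronal genes, 3 were lower and none higher (median -0.60): *rab-3*, a synaptic vesicle GTPase, the neuropeptide gene *flp-19*, at 0 reads in every nuclei library, and *unc-119*, which is mutated in this strain. Of 13 hypodermal genes, 2 were lower (*dpy-11* and *lin-26*) and 2 higher (the nuclear receptor *nhr-25* and the hedgehog-related *qua-1*, which had 805, 569 and 1684 CPM in nuclei, against 194, 34.5 and 493 CPM in worms). Of 10 pharyngeal genes only the troponin *tni-4* was lower, with a log2 fold change of -2.12 ± 0.46. No gene of 8 on the somatic gonad list passed the limma test, and 2 were lower at an unadjusted p under 0.05. Of 5 genes of coelomocytes and the excretory cell, the chloride channel genes *exc-4* and *clh-3* were higher, at 1.08 ± 0.26 and 1.05 ± 0.38. Over all somatic lists, 77 of 260 genes were lower and 12 higher, against 19.4% and 15.9% of all genes.

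**Figure D2:**
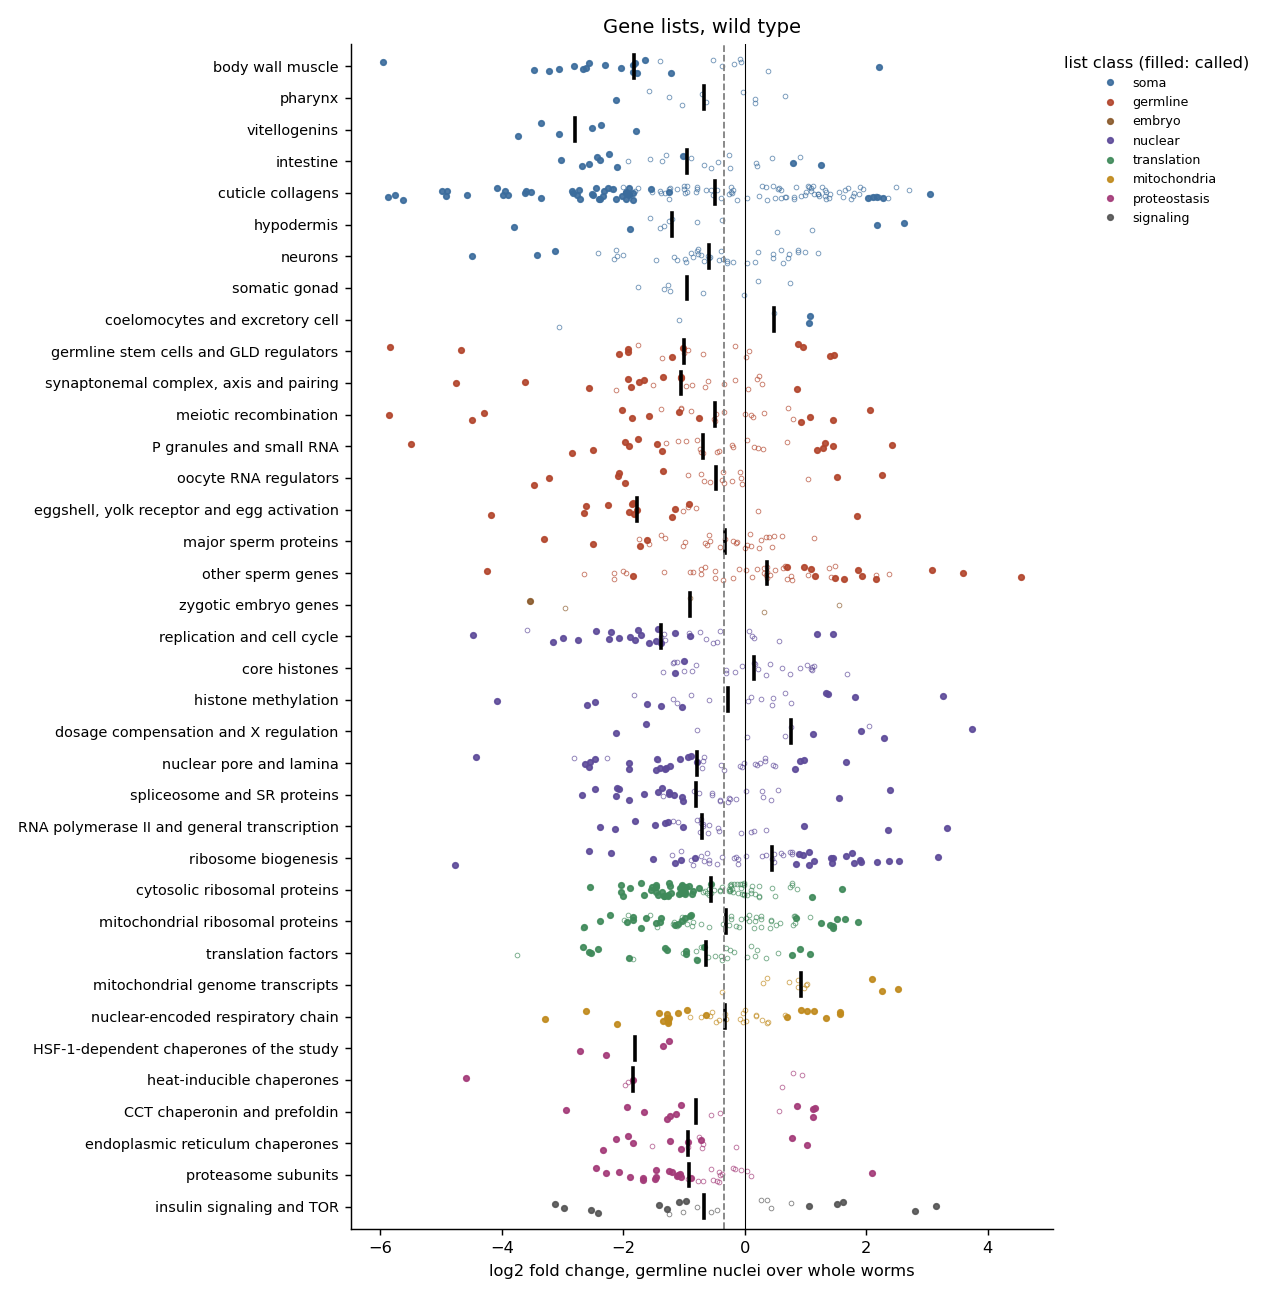
Log2 fold change, germline nuclei over whole worms, of each member of 37 gene lists (points; filled where adjusted p is under 0.05, open otherwise), with the median of each list (black bar) and of all genes (dashed line, -0.34). By median, vitellogenins (-2.79) lie furthest left of the 37 lists, and mitochondrial genome transcripts (0.93) and dosage compensation genes (0.77) furthest right.

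The genes of the largest decrease were nearly silent in nuclei. They were under 1 CPM in all or most nuclei libraries. In the wild type they met the filter only with the worm libraries. Their direction was thus largely fixed by it, and their p-values add no support. The same holds for other genes at such levels, among them *hlh-1*, *elt-2*, *flp-19*, *puf-8*, *zhp-3*, *meg-1* and *ssp-36*. *T21C9.13* had 7.5, 18.4 and 8.56 CPM in worms and 0 reads in every nuclei library, which is at least 31.8-fold lower when 3 reads per library are taken as the limit. *T20D3.14*, *C18H7.11*, *F17A9.5*, *tmem-24*, *far-8* (a fatty acid and retinol binding protein), *drl-1* (a kinase of fat metabolism) and the snoRNA *ZK858.10* were also at 0 reads in every nuclei library, with bounds from 14.1-fold for *F17A9.5* to 19.4-fold for *T20D3.14*. *ZK858.10* overlaps an exon of *gld-4* on the same strand. The poly(ADP-ribose) glycohydrolase gene *parg-2* had 1.45, 0 and 0 CPM in nuclei, against 28, 36.3 and 31.2 CPM in worms (adjusted p = 0.000175). Of the other genes in this class, *acs-2*, an acyl-CoA synthetase, and *nhr-49*, a nuclear receptor of lipid metabolism, had 0, 1.15 and 0 CPM in nuclei, against 12.9, 27.5 and 20 CPM in worms, and 0, 0 and 0.832 CPM in nuclei, against 7.06, 23.2 and 21.1 CPM in worms. *ule-5*, which encodes a protein of the uterine lumen, had 0, 0.625 and 0.737 CPM in nuclei, against 19.6, 48.6 and 24.6 CPM in worms (adjusted p = 4.16e-05). *cbp-2*, *EEED8.14* and the sugar transporter *swt-6* had between 1 and 3 reads summed over the nuclei libraries, so no fold is given for them. Over all genes, 199 of the 2638 lower genes had 0 reads in every nuclei library. Their bounds ran from 0.778-fold to 31.8-fold, and at the lower end the limit of 3 reads shows no decrease.

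Germline transcripts were not raised as a group over whole worms, which hold the germline with its cytoplasm. Over all germline lists, 29 of 217 genes were higher and 57 lower (13.4% and 26.3%), against 15.9% and 19.4% of all genes. The median was -0.50, which is -0.16 relative to all genes. Of 4 defining germ cell markers, chosen after their values were seen, none passed the limma test, while other members of the same lists were lower. The P granule component *pgl-1* had 430.5, 332 and 264 CPM in nuclei, against 324, 269.8 and 231 CPM in worms (log2 fold change 0.30 ± 0.26, adjusted p = 0.378), and the meiotic axis protein *him-3* 51.7, 42.6 and 50.8 CPM in nuclei, against 54, 51.4 and 36.1 CPM in worms (adjusted p = 0.893). The synaptonemal complex protein *syp-1* had 78.9, 77.1 and 55.9 CPM in nuclei and 57.1, 70.7 and 47.7 CPM in worms, and the germline helicase *glh-1* 82, 69.9 and 117 CPM and 111, 216 and 126 CPM, with adjusted p = 0.363 and 0.0652. A value that misses the threshold does not show that the levels were equal.

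Messages of translational regulators in germ cells went both ways. Among 19 genes of stem cells and their RNA-binding regulators, 7 were lower, among them the KH-domain translational repressor *gld-1* with 37.1, 17.2 and 13.7 CPM in nuclei, against 68.6, 111 and 83.5 CPM in worms (log2 fold change -2.07 ± 0.37, adjusted p = 0.000782). The PUF protein *puf-8* had 1.58, 0.695 and 0 CPM in nuclei, against 18.2, 39.4 and 19.4 CPM in worms (adjusted p = 0.000308), *nos-1*, a nanos homolog, had -4.67 ± 0.87 and *gld-3* had -1.93 ± 0.41. The 4 that were higher included the PUF genes *fbf-1* and *fbf-2*, with 25.5, 15.3 and 15.8 CPM in nuclei, against 7.13, 7.89 and 6.01 CPM in worms, and 41.1, 23.3 and 16 CPM in nuclei, against 10.6, 9.24 and 7.54 CPM in worms, and *gls-1* (0.95 ± 0.26). The paralogs *fbf-1* and *fbf-2* share most of their sequence, so reads may be split between them.

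Meiotic genes were more often lower than higher. Among 23 genes of the synaptonemal complex, axis and pairing centers, 10 were lower, such as *syp-3* with 2.46, 1.74 and 1.41 CPM in nuclei, against 20.1, 31.2 and 17.9 CPM in worms (log2 fold change -3.62 ± 0.55, adjusted p = 0.000252) and the pairing center proteins *zim-1* and *zim-2* (-1.66 ± 0.31 and -1.92 ± 0.39). Only *coh-3*, a meiotic cohesin subunit, was higher (log2 fold change 0.86 ± 0.30, adjusted p = 0.0399). Among 26 recombination genes, 8 were lower, including *zhp-3* with 1.58, 0.207 and 0 CPM in nuclei, against 12.8, 25 and 13.2 CPM in worms, *dsb-1* (-4.30 ± 0.83) and *mre-11* (-1.85 ± 0.34). The 4 that were higher included *dsb-3*, a factor of double-strand break formation, with 121.8, 109.9 and 101 CPM in nuclei, against 37.2, 26.6 and 19 CPM in worms (log2 fold change 2.05 ± 0.31, adjusted p = 0.00024), *xnd-1* (1.45 ± 0.33) and *msh-5* (1.07 ± 0.32).

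P granule and oocyte genes had members in both directions. Of 29 P granule and small RNA genes, 8 were lower, with the helicase *cgh-1* at 15.1, 10.5 and 8.58 CPM in nuclei, against 47.3, 137 and 78 CPM in worms (log2 fold change -2.85 ± 0.46, adjusted p = 0.000376). *meg-1* was at 0.698, 0 and 0 CPM in nuclei and 2.65, 13.4 and 8.26 CPM in worms. The 5 higher ones included the argonautes *wago-4* (165, 130.3 and 136 CPM in nuclei, against 35.6, 26.4 and 20.6 CPM in worms, log2 fold change 2.41 ± 0.29, adjusted p = 5.4e-05) and *wago-1* (1.31 ± 0.26) and the granule scaffold *mip-1* (1.45 ± 0.21). Of 20 oocyte RNA regulators, the Y-box protein *cey-2* (-3.47 ± 0.49) and the zinc finger proteins *oma-2* (-3.22 ± 0.57) and *pos-1* (-2.10 ± 0.37) were among the 6 lower. Higher were *pie-1* (1.51 ± 0.33) and *ifet-1*, a partner of the cap-binding protein, with 528, 496 and 316 CPM in nuclei, against 87.5, 88 and 99.4 CPM in worms. Eggshell and yolk uptake genes were mostly lower. Of 17, 12 were lower (median -1.78). The yolk receptor *rme-2*, chosen after its values were seen, was at 25.7, 12.1 and 15.7 CPM in nuclei, against 43.5, 89.2 and 55.7 CPM in worms (log2 fold change -1.83 ± 0.41, adjusted p = 0.00343), and *gna-2*, *egg-3* and *cbd-1* were at log2 fold changes of -4.18 ± 0.56, -2.65 ± 0.36 and -1.90 ± 0.27. The chitin synthase *chs-1*, which builds the same eggshell, was higher, with 329, 337 and 273 CPM in nuclei, against 79.9, 107 and 76.4 CPM in worms (log2 fold change 1.84 ± 0.29, adjusted p = 0.000282).

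Sperm genes outside the major sperm proteins were more often higher than lower. Of 52 such genes, 12 were higher and 2 lower, with a median of 0.36, which is 0.70 above that of all genes. The median was 0.65 after quantile scaling and -0.33 after scaling to the sum, against -0.08 and -1.03 for all genes. *spe-29* had 25.3, 56.3 and 32.1 CPM in nuclei, against 1.86, 0.875 and 2.2 CPM in worms (log2 fold change 4.55 ± 0.53, adjusted p = 4.49e-05). *ssp-10* was at 1.94 ± 0.34, while *ssp-36*, at 0 reads in every nuclei library, and *spe-39* (-1.85 ± 0.41), which also acts outside sperm, were lower. Of 31 major sperm protein genes, whose near-identical copies share reads, 4 were lower (*msp-36*, *msp-50*, *msp-59* and *msp-63*) and none higher, and none of the 4 passed without the worm library of replicate 2. Of all reads outside rRNA and the mitochondrial genome the class held 0.135, 0.0992 and 0.091% in nuclei, against 0.181, 0.24 and 0.128% in worms, and the groups overlapped (exact two-sided permutation p = 0.2). Of all reads, rRNA included, it held 0.038, 0.021 and 0.0286% in nuclei, against 0.106, 0.184 and 0.071% in worms, without overlap.

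**Figure D3:**
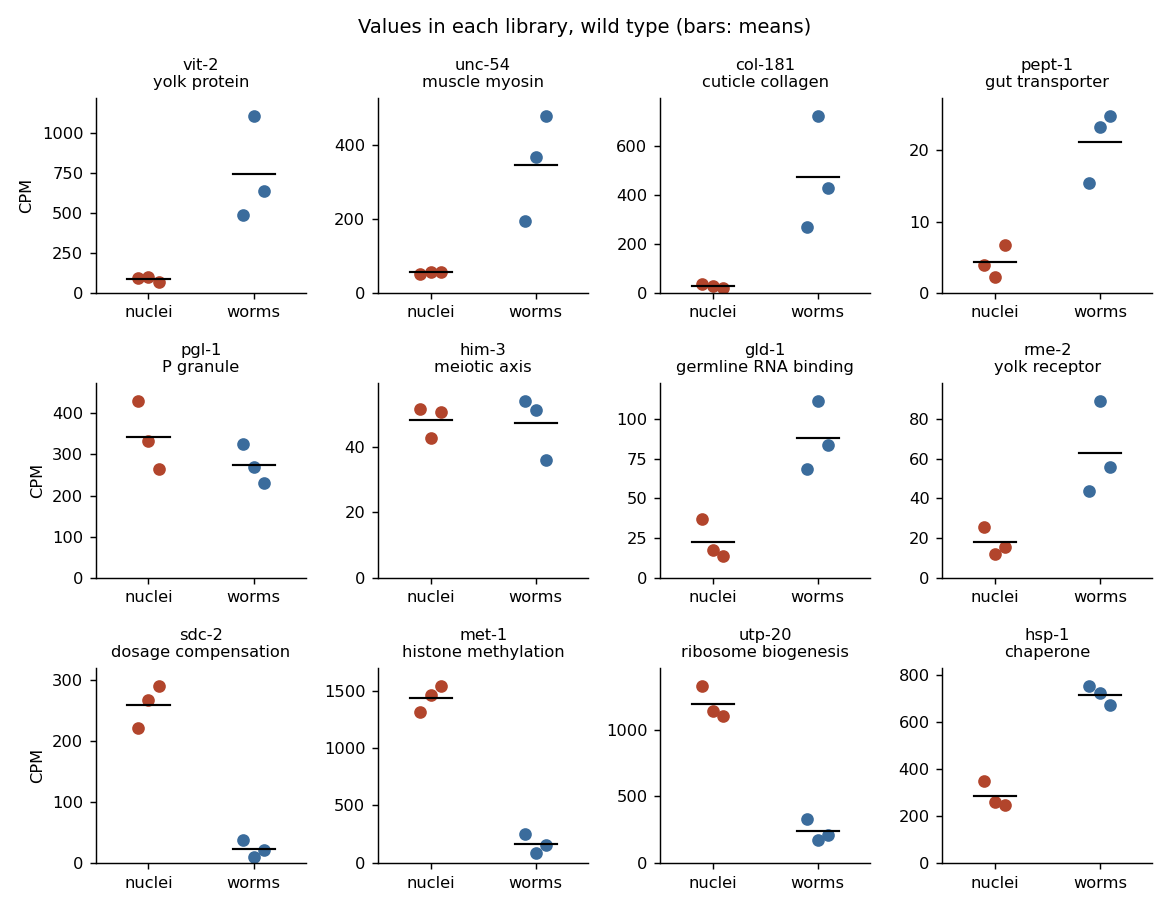
CPM in each of the 3 germline nuclei libraries (red, left) and the 3 whole worm libraries (blue, right) for 12 genes; black bars are means. The somatic genes vit-2, unc-54, col-181 and pept-1, the germline genes gld-1 and rme-2 and the chaperone hsp-1 lie lower in every nuclei library, pgl-1 and him-3 overlap, and sdc-2, met-1 and utp-20 lie higher in every nuclei library.

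Of 243 genes on the lists of nuclear functions, 37 were higher and 73 lower (15.2% and 30.0%), against 15.9% and 19.4% of all genes. The share of higher genes was thus near that of all genes. The dosage compensation list, whose products lower X expression in the soma of hermaphrodites, had 4 of 11 genes higher and 2 lower. Its median was 0.77, and 0.08 after scaling to the sum, against -1.03 for all genes after that scaling. The switch gene *sdc-2* had 220.5, 267 and 290.2 CPM in nuclei, against 36.9, 8.97 and 21.5 CPM in worms (log2 fold change 3.74 ± 0.40, adjusted p = 2.89e-05), and the condensin subunit *mix-1* had 382, 377 and 306 CPM in nuclei, against 129, 76 and 85.3 CPM in worms (log2 fold change 1.91 ± 0.27, adjusted p = 0.000154). The demethylase *dpy-21* had 52.2, 68.1 and 57.7 CPM in nuclei, against 12.5, 10.8 and 13.1 CPM in worms, while the condensin subunit *capg-1* (-1.62 ± 0.37) and *dpy-30* (-2.12 ± 0.60) were lower. Of 22 histone methylation genes, *met-1*, for an H3K36 methyltransferase, had 1315, 1461 and 1540.2 CPM in nuclei, against 249.7, 83.4 and 159 CPM in worms (log2 fold change 3.27 ± 0.34, adjusted p = 2.62e-05), and *set-25*, for an H3K9 methyltransferase, and the demethylase *jmjd-1.2* had log2 fold changes of 1.82 ± 0.33 and 1.36 ± 0.27. The chromodomain gene *mrg-1* was among the 6 lower (-1.62 ± 0.30).

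The lists of transcription and splicing had more genes lower than higher. Of 26 genes of RNA polymerase II and its general factors, 3 were higher. *taf-1* had 1022, 901 and 968 CPM in nuclei, against 163, 57.8 and 94.5 CPM in worms (log2 fold change 3.32 ± 0.34, adjusted p = 2.59e-05), the elongation factor *emb-5* had 738, 703 and 493 CPM in nuclei, against 175, 106 and 103 CPM in worms, and the TFIIB gene *ttb-1* was at 0.97 ± 0.29. The 7 lower ones included *spt-5* (-2.13 ± 0.32), *spt-16* (-1.81 ± 0.29) and the polymerase subunit *rpb-2* (-1.31 ± 0.27, adjusted p = 0.00217). Of 32 spliceosome genes, *snrp-200*, the helicase of the U5 particle, and *rsp-6*, an SR protein, were higher (2.38 ± 0.29 and 1.56 ± 0.27) and 14 were lower, with the Sm proteins *snr-4* and *snr-1* at -2.69 ± 0.38 and -2.12 ± 0.31. Of 39 genes of the nuclear pore and lamina, 17 were lower, with the lamin gene *lmn-1* at 6.98, 7.88 and 8.2 CPM in nuclei, against 37.2, 62 and 40.7 CPM in worms (log2 fold change -2.57 ± 0.37, adjusted p = 0.000173). On that list 4 were higher, among them *npp-13* (1.67 ± 0.26). Replication genes were lower in 18 of 35, with *mcm-5* at 0.572, 5.37 and 1.21 CPM in nuclei, against 27.4, 49.5 and 29.9 CPM in worms (log2 fold change -4.47 ± 0.65, adjusted p = 0.000187) and the ribonucleotide reductase *rnr-2* at -2.21 ± 0.37. The sliding clamp *pcn-1* (1.19 ± 0.25) and *mcm-7* (1.45 ± 0.32) were higher. Of 27 core histone genes, whose messages largely lack poly(A) tails and whose copies share reads, 2 were lower (*his-74* and *his-35*).

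Genes of ribosome biogenesis were more often higher than lower. Their products work in the nucleolus, and 18 of 51 genes were higher and 7 lower. The median was 0.45, which is 0.79 above that of all genes. After quantile scaling it was -0.07, where that of all genes was -0.08. Scaling to the sum, which moves every gene equally, gave -0.24, against -1.03 for all genes. *utp-20*, of the small subunit processome, had 1332, 1146 and 1108 CPM in nuclei, against 332, 172 and 213 CPM in worms (log2 fold change 2.37 ± 0.29, adjusted p = 5.55e-05). *pro-3* had 666, 566 and 406 CPM in nuclei, against 94.5, 37.7 and 57.5 CPM in worms (log2 fold change 3.18 ± 0.31, adjusted p = 2.59e-05), and *pro-2* and *rbd-1* had log2 fold changes of 2.54 ± 0.36 and 2.17 ± 0.32. The lower ones included the exosome subunits *exos-2* and *exos-3* (-2.57 ± 0.48 and -1.51 ± 0.36) and the helicase *ruvb-2* (-2.21 ± 0.40).

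Genes for the proteins of the ribosome were more often lower than higher. Of 83 cytosolic ribosomal protein genes, 37 were lower and 2 higher (median -0.57). *rps-8* had 155, 157 and 117 CPM in nuclei, against 651, 1112 and 804 CPM in worms (log2 fold change -2.56 ± 0.24, adjusted p = 2.59e-05), and *rpl-3* had 171, 157 and 155 CPM in nuclei, against 595, 727 and 629 CPM in worms (log2 fold change -2.01 ± 0.22, adjusted p = 3.66e-05). *rps-6*, for a protein of the small subunit, had 307, 294 and 338 CPM in nuclei, against 409, 608 and 586 CPM in worms (log2 fold change -0.75 ± 0.25, adjusted p = 0.0297). The higher ones were *rpl-42* (1.61 ± 0.54) and the stalk protein *rla-1* (1.10 ± 0.28), of which *rla-1* stood at -0.068 after quantile scaling. Of all reads outside rRNA and the mitochondrial genome, ribosomal proteins held 7.22, 5.07 and 4.98% in nuclei, against 12.8, 12.3 and 11.6% in worms. Translation factors were lower in 11 of 34, such as *eif-1.A* with 55.2, 34 and 43.2 CPM in nuclei, against 287, 310.2 and 231 CPM in worms (log2 fold change -2.66 ± 0.27, adjusted p = 2.59e-05), and higher in 3 (*ife-2*, *eif-2beta* and *eif-6*). Mitochondrial ribosomal proteins had 8 genes higher, with *mrpl-40* at 1.64 ± 0.25, and 17 lower of 66.

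Transcripts of the mitochondrial genome stayed abundant in the nuclear preparation. All 12 protein-coding genes were measured, with a median log2 fold change of 0.93 that turned to -0.55 after quantile scaling. *ND4L*, *ND6* and *ND3*, subunits of complex I, were higher, with 2.53 ± 0.58, 2.26 ± 0.54 and 2.10 ± 0.56 (adjusted p = 0.00398, 0.00492 and 0.0101), but none of the 3 passed when the 6 wild-type libraries were fitted without those of *daf-2(e1370)*. *COX3*, *ATP6*, *COX2*, *ND1* and *COX1* had log2 fold changes between 0.72 for *COX1* and 1.02 for *COX3* with overlapping groups. *ND2* had 1.01 ± 0.41, and *ND5*, *ND4* and *CYTB* had 0.37, 0.30 and -0.38. None of these passed the test. The mitochondrial rRNAs listed as *KEF34_r01* and *KEF34_r02* were higher by 2.15 ± 0.29 and 2.54 ± 0.36 (adjusted p = 0.000105 and 0.000167). As a share of all reads, rRNA included, the mitochondrial genome held 6.76, 4.79 and 5.57% in nuclei, against 11.4, 7.31 and 8.9% in worms. Nuclear genes of the respiratory chain had 7 of 39 higher, with *atp-5* at 1212, 1031 and 773 CPM in nuclei, against 476, 255 and 496 CPM in worms, and 13 lower, with *nuo-2* at 5.87, 7.88 and 7.05 CPM in nuclei, against 38.5, 55.6 and 35.6 CPM in worms.

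Outside rRNA and the mitochondrial genome, the most abundant mRNAs of a library held more of the reads in nuclei. The 100 most abundant protein-coding genes of a library held 36.8, 37.1 and 34.3% of the reads outside rRNA and the mitochondrial genome in nuclei, against 23.01, 20.4 and 20.2% in worms (exact two-sided permutation p = 0.1, the smallest possible). Of all reads, rRNA included, they held less in nuclei, with 10.4, 7.84 and 10.8% in nuclei, against 13.4, 15.6 and 11.2% in worms, and these groups did not overlap either. In nuclei 201 protein-coding genes averaged at least 500 CPM, of which 165 were higher and 2 lower than in worms, while in worms 71 did, of which 16 were higher and 27 lower in nuclei. Of all genes, 15.9% were higher and 19.4% lower. Genes picked by their level in 1 group tend to be higher in it, so these counts add no support. The cut is also unequal, since scaling to the sum outside rRNA and the mitochondrial genome lowered every nuclei value relative to worms. The following genes lead the ranking by CPM in nuclei and were chosen after their values were seen. DNA topoisomerase I, *top-1*, had 8269.9, 8015 and 5622 CPM in nuclei, against 1597, 635 and 924 CPM in worms (log2 fold change 2.88 ± 0.45, adjusted p = 0.000296). The unnamed genes *E03H12.5* and *T23B3.5* had 6914, 6909 and 4290.2 CPM in nuclei, against 991, 338 and 711 CPM in worms, and 6852, 6664 and 4306 CPM in nuclei, against 911, 279.9 and 605 CPM in worms. *rbpl-1*, *xnp-1* (an ATRX-like chromatin remodeler) and *chaf-1* (of the histone chaperone CAF-1) had log2 fold changes of 2.96 ± 0.40, 3.10 ± 0.42 and 3.11 ± 0.39, with adjusted p = 0.000119, 0.000119 and 7.24e-05. In every one of these genes the lowest nuclei library was above the highest worm library, and among the worms the library of replicate 2 was the lowest. In worms the most abundant ones were ribosomal protein genes such as *rps-24* and *rpl-19*, which did not pass the test (adjusted p = 0.98 and 0.119), and the collagen *col-124*, which was lower in nuclei with 198, 166 and 116 CPM in nuclei, against 799, 1624 and 1042 CPM in worms (log2 fold change -2.82 ± 0.30, adjusted p = 2.67e-05).

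Non-coding loci made up most of the largest increases. The loci named in this paragraph were under 1 CPM in every wild-type worm library. In the wild type they met the filter only through nuclei, so their direction was fixed by it and their p-values add no support. Of the 15 genes with the largest fold changes, 12 are annotated as ncRNA, 1 as a piRNA locus and 2 as protein-coding. *F14F11.5*, an ncRNA of 68 bases on chromosome II (8311085 to 8311152 on WBcel235, plus strand) opposite an intron of the potassium channel gene *shw-1*, had 7.51, 9.41 and 9.37 CPM in nuclei, against 0, 0.0869 and 0 CPM in worms (log2 fold change 6.89 ± 0.74, adjusted p = 2.97e-05). *C34C12.10*, an ncRNA on chromosome III outside protein-coding genes, had 8.11, 9.34 and 7.43 CPM in nuclei, against 0, 0.107 and 0 CPM in worms (adjusted p = 0.00322). *T04C10.7*, *F52B10.4* and *K03F8.4* had log2 fold changes of 6.63 ± 1.04, 6.33 ± 0.80 and 6.23 ± 0.79, with worm values of at most 0.508 CPM, that of *F52B10.4* in replicate 1.

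By annotation, 202 of 269 ncRNA loci were higher (median 4.06), 27 of 37 piRNA loci (median 4.21), 21 of 41 lincRNAs (1.45), 6 of 15 antisense RNAs (2.11) and 6 of 9 snoRNAs (2.69), against 1776 of 12740 protein-coding genes (median -0.42). The filter bears on these counts. Only 50 of the 269 ncRNA loci and 2 of the 37 piRNA loci averaged 1 CPM or more in worms, and a locus that passed only through the nuclei had to be higher there. Among the 50 ncRNA loci at 1 CPM or more in worms, 22 were higher and 3 lower (median 0.35), and among 27 such lincRNAs 12 were higher and none lower (median 0.73). The levels were low, with a median over ncRNA loci of 4.04 CPM in nuclei and 0.278 CPM in worms. A piRNA locus is annotated as 21 bases, and libraries of fragmented poly(A) RNA do not measure the small RNA itself, so these values are reads across the locus.

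**Figure D4:**
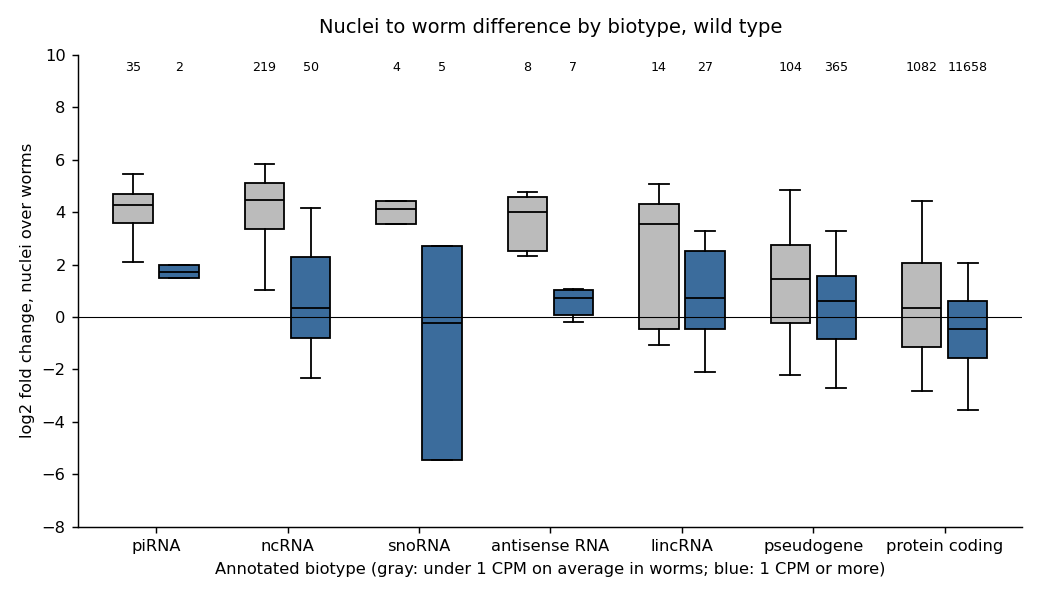
Log2 fold change, germline nuclei over whole worms, by annotated biotype, split by the mean in worms (gray, under 1 CPM; blue, 1 CPM or more); boxes span the quartiles with the median, whiskers the 5th to 95th percentile, and numbers give the genes. Among ncRNA loci the 50 at 1 CPM or more in worms have a median of 0.35, and among protein-coding genes 11658 are at that level, with a median of -0.47.

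Place and length were compared only among the 91 loci of these 5 biotypes that averaged 1 CPM or more in worms, of which 37 were higher and 5 lower (median 0.46). Of the 52 that overlapped no protein-coding gene, 26 were higher and 2 lower (median 0.80). Of 15 that overlapped an exon on the same strand 6 were higher and 2 lower (median 0.16), and of 14 that overlapped an exon on the opposite strand 3 were higher. Only 5 lay inside an intron on each strand. No strand setting is listed for the counting, so reads of a locus and of a gene on the opposite strand cannot be told apart. Of 30 loci under 200 bases 15 were higher and 1 lower (median 1.72), and of 61 longer ones 22 were higher and 4 lower (median 0.45). Among the more abundant loci that rose was *W06H8.5*, with 248, 243 and 281 CPM in nuclei, against 75.1, 24 and 78.6 CPM in worms, which overlaps exons of *W06H8.6* on the same strand and cannot be told apart from it. The lincRNA *Y9D1A.1* had 75, 131 and 173 CPM in nuclei, against 18.6, 12.1 and 23.9 CPM in worms (log2 fold change 2.76 ± 0.32, adjusted p = 4.49e-05), and *linc-168* had 89.6, 71.8 and 55.2 CPM in nuclei, against 14.9, 7.19 and 15.4 CPM in worms (log2 fold change 2.58 ± 0.32, adjusted p = 7.47e-05). The ncRNA *tts-1*, a ribosome-bound long non-coding RNA, had 41.4, 78.6 and 68.3 CPM in nuclei, against 22.6, 17.02 and 52.5 CPM in worms (log2 fold change 1.15 ± 0.39, adjusted p = 0.0318, groups overlapping). *T05E11.9* was lower, with 4.23, 25 and 11.9 CPM in nuclei, against 34, 53.9 and 81.5 CPM in worms (log2 fold change -2.30 ± 0.54, adjusted p = 0.00453).

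Genes with long introns were higher in nuclei more often than genes with short ones. Protein-coding genes of the nuclear chromosomes that averaged 5 CPM or more were put in 5 bins of 1563 genes by total intron length. The bin of the longest introns (3099 to 86625 bases in all) had 28.7% of genes higher and 12.3% lower, with a median of 0.29. The bin of the shortest introns (0 to 240 bases) had 13.7% higher and 32.2% lower, with a median of -0.53. The bins between had medians of -0.47, -0.29 and -0.16, from shorter to longer. On the autosomes alone the outer bins had medians of 0.29 and -0.48. The number of exons also went with the difference, with medians of -0.28, -0.48, -0.33, -0.11 and 0.12 from the fewest to the most. Its bin of the fewest exons had 15.9% higher and 25.5% lower, and that of the most 26.0% and 16.3%. Intron length and number of exons were not separated. Exon length gave a narrower range without order, with medians of -0.17, -0.29, -0.35, -0.24 and -0.05 from the shortest to the longest bin. These bins share genes and libraries and are a description without a test.

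The X chromosome is known for low expression in germ cells. The median log2 CPM of X-linked genes minus that of autosomal genes was -1.41 ± 0.18 in nuclei and -1.41 ± 0.28 in worms (SD, n = 3 each), and the exact two-sided permutation test gave p = 1. This median covered 1748 X-linked genes, more than the 1621 protein-coding ones counted gene by gene below, so the gene sets differ. With the mean in place of the median the difference was -1.59 ± 0.18 in nuclei and -1.18 ± 0.23 in worms (SD, n = 3 each), with groups that did not overlap (exact permutation p = 0.1, the smallest possible). Gene by gene, 123 of 1621 X-linked protein-coding genes (7.59%) were higher and 328 (20.2%) lower, against 14.9% and 20.4% on the autosomes, and the medians were -0.92 and -0.37. Among genes that averaged 5 CPM or more, the medians were -0.22 on the X and -0.22 on the autosomes.

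**Figure D5:**
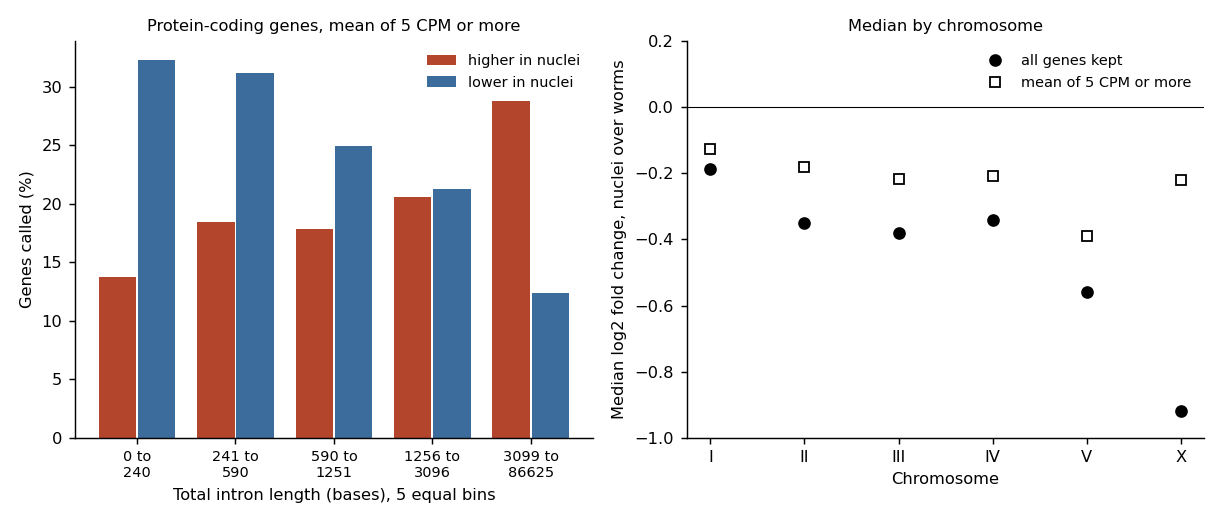
Left, percent of protein-coding genes called higher (red) or lower (blue) in nuclei, in 5 equal bins of total intron length (bases) among genes averaging 5 CPM or more; right, median log2 fold change by chromosome for all protein-coding genes kept (filled) and for those averaging 5 CPM or more (open). The bin of the longest introns has 28.7% higher and 12.3% lower, and the X lies at -0.92 and -0.22.

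Chaperone lists differed in their counts. All 4 chaperone genes on a list of HSF-1-dependent chaperones that the study names were lower. The cytosolic HSP70 gene *hsp-1* had 350.1, 258 and 248 CPM in nuclei, against 755, 723 and 672 CPM in worms (log2 fold change -1.34 ± 0.22, adjusted p = 0.000363), and *hsp-90* had 77, 119.5 and 65.2 CPM in nuclei, against 283, 624 and 389.9 CPM in worms (log2 fold change -2.28 ± 0.35, adjusted p = 0.000268). The others were the J-domain protein *dnj-13* (-2.72 ± 0.52) and the co-chaperone *sti-1* (-1.26 ± 0.38, adjusted p = 0.0207). The adjusted p of *sti-1* was 0.0675 without the worm library of replicate 2, 0.054 without that of replicate 1 and 0.0648 without the nuclei library of replicate 3. Of 7 heat-inducible chaperones 2 were lower, and the list was low in both groups, summing to 6.65 to 10.7 CPM in nuclei and 17.3 to 28.9 CPM in worms. Of 14 genes of the CCT chaperonin and prefoldin, 7 were lower, with *pfd-6* at 7.13, 5.23 and 5.23 CPM in nuclei, against 48.2, 56.4 and 32.8 CPM in worms (log2 fold change -2.95 ± 0.35, adjusted p = 5.27e-05), and 4 higher, with *cct-2* and *cct-3* at 1.12 ± 0.27 and 1.12 ± 0.26. Their products join in one ring with those of *cct-4* and *cct-6*, which were lower (-1.23 ± 0.26 and -1.13 ± 0.21). Proteasome genes were lower in 16 of 32, and only *rpn-8*, of the lid, was higher, with 968, 691 and 548 CPM in nuclei, against 224, 139.9 and 149 CPM in worms (log2 fold change 2.10 ± 0.30, adjusted p = 0.000152). Chaperones of the endoplasmic reticulum were higher in 2 and lower in 8 of 16, and among the lower ones were calnexin *cnx-1* (-2.34 ± 0.32) and the BiP gene *hsp-4* (-1.84 ± 0.39).

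Of 22 genes of insulin and TOR signaling, 5 were higher and 8 lower. The raptor gene *daf-15* had 658, 659 and 621 CPM in nuclei, against 119.4, 63.1 and 107 CPM in worms (log2 fold change 2.80 ± 0.31, adjusted p = 3.66e-05), the insulin receptor substrate *ist-1* had 95.3, 113 and 144 CPM in nuclei, against 18.1, 6.55 and 18.7 CPM in worms (log2 fold change 3.15 ± 0.36, adjusted p = 4.11e-05) and the TOR kinase *let-363* 1.06 ± 0.24, while *hcf-1* (-2.99 ± 0.42) was among the lower ones. The receptor *daf-2* itself had 6.75, 18.3 and 2.55 CPM in nuclei, against 5.54, 13 and 14 CPM in worms (adjusted p = 0.53), and the tagged *hsf-1* 23.3, 21 and 15.7 CPM in nuclei, against 10.1, 16 and 19.4 CPM in worms (adjusted p = 0.442), with overlapping groups for both. The housekeeping genes that the study used for qPCR were lower in nuclei, *cdc-42* at -1.03 ± 0.24 and *rpb-2* at -1.31 ± 0.27, and so was *nmy-2*, a non-muscle myosin (log2 fold change -1.11 ± 0.41, adjusted p = 0.0489).

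Calls near the threshold rested on single libraries, on the scaling, on the pairing of libraries or on the *daf-2(e1370)* libraries in the fit. Without the worm library of replicate 2, the calls of *col-115*, *cpr-5*, *fat-6*, *nhr-25*, *qua-1*, *lin-26*, *unc-119*, *clh-3*, *coh-3*, *dpy-30*, *his-74*, *rpl-42*, *rps-6*, *ife-2*, *eif-2beta*, *eif-6*, *rrn-1.1*, *tts-1* and *nmy-2* were lost, with no change of direction. Most of these calls, but not those of *col-115*, *dpy-30* and *ife-2*, were lost without another of the 6 libraries too. The call of *fbf-1* was lost without the nuclei library of replicate 1, and that of *msh-5* without the nuclei or the worm library of replicate 3. That of *ttb-1* was lost without the nuclei library of replicate 2 or the worm library of replicate 3, and that of *his-35* without the nuclei library of replicate 1 or 2 or the worm library of replicate 1 or 3. After scaling to the sum outside rRNA and the mitochondrial genome, the increases of *fbf-1*, *fbf-2*, *gls-1*, *coh-3*, *xnd-1*, *msh-5*, *wago-1*, *pie-1*, *pcn-1*, *ttb-1*, *cct-2*, *cct-3*, *let-363*, *exc-4*, *clh-3* and *atp-5* no longer passed. Neither did those of *col-53*, *cpr-5*, *fat-6*, *nhr-25*, *qua-1*, *rpl-42*, *rla-1*, *ife-2*, *eif-2beta*, *eif-6* and *tts-1*. Quantile scaling ended the calls of *rsp-6*, *wago-1*, *atp-5*, *cct-2*, *cct-3*, *cpr-5*, *fat-6*, *qua-1*, *eif-2beta*, *his-74*, *his-35*, *msp-63*, *unc-119* and *ND3*. With replicate numbers as a block, adjusted p was 0.0555 for *clh-3*, 0.0636 for *nmy-2*, 0.0506 for *rpl-42* and 0.0677 for *rrn-1.1*. When limma was fitted to the 6 wild-type libraries only, it was 0.503 for *rrn-1.1*, 0.0547 for *rps-6* and 0.0589 for *tts-1*. The decreases in vitellogenins, *gld-1* and *hsp-1* and the increases in *sdc-2*, *met-1*, *taf-1*, *utp-20*, *dsb-3*, *wago-4*, *ifet-1* and *chs-1* passed under each of these settings.

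The same contrast in *daf-2(e1370)*, from its own 3 nuclei and 3 worm libraries, was used only to see where the wild type differs. The nuclei to worm difference of wild type and *daf-2(e1370)* differed for 14 genes (0.103% of those tested) by limma at an adjusted p under 0.05, and for 1666 at an unadjusted p under 0.05. Of the 14, the difference was more positive in the wild type for 11 and more negative for 3. The count rests on single libraries: without the wild-type worm library of replicate 1, 2 or 3 it was 0 (with 1150 genes at an unadjusted p under 0.05), 181 or 1. Without the wild-type nuclei library of replicate 1, 2 or 3 it was 6, 27 or 9, and with replicate numbers as a block it was 1. In 9 of the 11, every *daf-2(e1370)* nuclei library was at 0 reads, such as *T25C12.3*, with 4.86, 3.41 and 7.62 CPM in nuclei, against 24.3, 45.7 and 71.5 CPM in worms in the wild type, while the values were 33.9, 87.3 and 93 CPM in *daf-2(e1370)* worms. The lysosomal protease *cpr-6* was measured throughout, with 81.2, 64 and 79.6 CPM in nuclei, against 80.3, 52 and 73.1 CPM in worms in the wild type. In *daf-2(e1370)* it had 29.7, 34.3 and 26.4 CPM in nuclei, against 123, 166 and 101 CPM in worms (difference 2.24 ± 0.35 on the log2 scale, adjusted p = 0.0363). Among the 3 negative ones, *Y46H3C.5* had 152, 358 and 267 CPM in nuclei, against 18.9, 11 and 20.8 CPM in worms in the wild type. In *daf-2(e1370)* it had 1095, 631 and 869.8 CPM in nuclei, against 6.81, 8.14 and 8.34 CPM in worms (difference -2.86 ± 0.47, adjusted p = 0.0363).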

How the data were processed

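RNA of germline nuclei and whole worms was measured by poly(A)-selected, directional, paired-end sequencing. The authors aligned reads to WBcel235 with STAR, allowing reads of several sites, counted them per gene with featureCounts as fractions where they matched or overlapped more than 1 gene, and deposited log2 CPM made with edgeR for genes over their limit of expression. No strand setting was given in the sources used here. Near-identical or overlapping genes are therefore uncertain. The tables of the authors' own comparisons (fold changes, F scores and p-values) and the table of the HSF-1 depletion libraries were not used, and 0 columns were left unmapped.

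Genes with at least 1 CPM in 3 of 12 libraries were fitted on the log2 values as deposited with limma 3.58.1 in R 4.3.3 (4 groups, 1 shared estimate of the spread, empirical Bayes, no pseudocount beyond that of the authors, Benjamini-Hochberg adjustment, adjusted p under 0.05). The scripts were tested on simulated data. Values came back as whole reads (within 0.1 of a whole number) for 79.5 to 86.3% of the low values of these 6 libraries, which is not nearly all, so no count test was run. Shares and chromosome medians were compared by exact two-sided permutation tests, and the permutation p-values printed are unadjusted. Adjusted over 13 classes for all reads, a permutation p of 0.1 became 0.1625. Levels of genes at 0 reads were set against a floor of 3 reads per library. Other steps used Python 3.11.15, pandas 2.3.3, numpy 2.4.6, scipy 1.17.1 and matplotlib 3.10.9. Gene names came from a gene table for 13572 IDs and from position in RefSeq for 609, 25 stayed unnamed, and positions and biotypes follow Ensembl 115.

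Named genes were those of the 15 largest and 15 smallest fold changes without overlap at a mean of 5 CPM or more, the 10 most abundant in each group, up to 4 members a list by adjusted p and up to 3 against the majority of a list, all vitellogenins and mitochondrial genes, 5 a non-coding biotype, genes the study names, and the largest and smallest differences from *daf-2(e1370)*. Genes and lists were chosen with earlier results of these data known, and the lists were repaired once after the files were opened, when members had been dropped in error. Same-numbered nuclei and worms deviated together in the wild type (r = 0.117, 0.113 and 0.138 across genes, each the highest for its number) and less in *daf-2(e1370)* (0.0729, 0.0966 and 0.0880), so the replicate block was an alternative. Further alternatives were other scalings, filters and pseudocounts, the 6 libraries alone, and leaving out each library. Scaling to the sum outside rRNA and the mitochondrial genome was chosen after seeing the data. Some genes of the lists are counted but not reported here by name.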

Additional observations from a re-analysis of the deposited data

Results flagged for a closer look

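In 14 genes the difference between nuclei and worms differed between the wild type and *daf-2(e1370)* by the test of that difference (limma, adjusted p = 0.00695 to 0.0488). As wild type minus *daf-2(e1370)* on the log2 scale, it was 7.04 for *clec-56*, 6.82 for *T25C12.3*, 6.30 for *trpp-4*, 6.25 for *cyp-29A2*, 6.01 for *lbp-3*, 5.94 for *cdo-1*, 5.58 for *snx-3*, 5.55 for *R05D3.8*, 5.55 for *F21C10.9*, 4.68 for *F45D11.14* and 2.24 for *cpr-6*. It was -2.66 for *H37A05.4*, -2.86 for *Y46H3C.5* and -3.42 for *C42D4.18*. The first 9 of these had 0 reads in every *daf-2(e1370)* nuclei library and reads in every wild-type nuclei library, so the size of the fitted difference depends on the lowest deposited value. *lbp-3*, for a fatty acid binding protein, had 3.19, 4.39 and 6.86 CPM in wild-type nuclei and 19.4, 26.1 and 19.6 CPM in wild-type worms, against 0 reads in *daf-2(e1370)* nuclei and 28.9, 15.6 and 18.7 CPM in *daf-2(e1370)* worms. *F45D11.14* was low in the wild type and higher in the mutant in nuclei and, by more, in worms. It had 0.719, 0.579 and 0.631 CPM in wild-type nuclei and 0.387, 0.248 and 0.906 CPM in wild-type worms, against 5.95, 11 and 8.62 CPM in *daf-2(e1370)* nuclei and 141, 187 and 118 CPM in *daf-2(e1370)* worms. *H37A05.4* was higher in nuclei of both genotypes, with 118.8, 253 and 260.0 CPM in wild-type nuclei and 22.5, 12.3 and 25 CPM in wild-type worms, against 687, 485 and 607 CPM in *daf-2(e1370)* nuclei and 8.49, 8.84 and 9.36 CPM in *daf-2(e1370)* worms.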

How the results depend on the processing

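Over the alternatives other than the scaling to a sum, 1570 to 2679 genes were higher and 1580 to 3119 lower in nuclei. Leaving out single libraries gave 1570 to 2062 higher and 1580 to 2360 lower genes, and the replicate block gave 2182 and 2775. Scaling to the sum outside rRNA and the mitochondrial genome gave 1273 higher and 4752 lower, since it moves every gene down by 0.69. The genes that differed from *daf-2(e1370)* numbered 46 with log2(CPM + 2), 1 with the replicate block and 0 to 181 without single libraries (0 without the wild-type worm library of replicate 1, with 1150 at an unadjusted p under 0.05, 181 without that of replicate 2). The X chromosome difference was -0.41 with the mean in place of the median. With rRNA and the mitochondrial genome left out of the sum, shares in nuclei minus worms became 0.245 percentage points for ncRNA, 0.0426 for lincRNA, 0.00569 for antisense RNA, 0.0282 for piRNA loci, 0.0104 for snoRNA and 0.892 for pseudogenes (exact permutation p = 0.1 each, the smallest possible). After quantile scaling *ATP6* turned to -0.95, *ND5* to -0.95, *ND4* to -1.02 and *rla-1* to -0.068, and the cause was not tested. Of 261 named genes 35 lost and 4 gained a call under sum scaling, 6 lost one under the block (4 of them in the text above, beside *hsp-17* and *cel-mir-8190*, and the block ended no other call of these genes), and 14 to 33 lost one without single libraries. The 3 nuclei libraries held fewer reads outside rRNA than the worm libraries, so a gene at 0 reads in nuclei is only known to lie under 3 reads per library.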

Other observations

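Annotated pseudogenes were higher in nuclei in 114 of 469 cases and lower in 30, with a median of 0.72, against 15.9% higher and 19.4% lower of all genes. After scaling to the sum outside rRNA and the mitochondrial genome this median was 0.03, against -1.03 for all genes. The filter bears on this count too. Among the 365 pseudogenes at 1 CPM or more on average in worms, 86 were higher and 27 lower (median 0.61). *Y39B6A.18* had 687, 803 and 992 CPM in nuclei, against 65.7, 14.2 and 35.1 CPM in worms (limma, log2 fold change 4.68 ± 0.48, adjusted p = 2.62e-05), and *Y59E9AL.5* had 1074, 1223 and 1344 CPM in nuclei, against 113, 27.7 and 73.5 CPM in worms (log2 fold change 4.30 ± 0.46, adjusted p = 2.97e-05). Of 6 tRNA genes kept, 2 were higher and none lower, and no tRNA gene averaged 1 CPM in worms. The 2 protein-coding genes among the 15 largest increases were *C36C9.5*, with 8.52, 19.7 and 8.67 CPM in nuclei, against 0.0966, 0.205 and 0 CPM in worms, and *srz-25*, of a chemoreceptor family, with 2.97, 7.53 and 5.04 CPM in nuclei, against 0, 0.107 and 0 CPM in worms. In the wild type both met the filter only through nuclei, so their direction was fixed by it.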
